A study of Mus musculus with 26 samples.

Results

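Distal EZH2 peaks inside H3K27me3 are EZH2-bound sites of WT mouse embryonic fibroblasts (MEFs) that lie away from gene starts and within chromatin carrying the mark that EZH2 deposits. They were chosen by a rule on the WT peak lists. A peak of EZH2 WT replicate 1 had to be under 5000 bp wide, to overlap a peak of EZH2 WT replicate 2, to lie more than 2 kb from the transcription start site (TSS) of every annotated gene, and to overlap a peak in both H3K27me3 WT lists. Of the 22316 peaks of EZH2 WT replicate 1, 1432 met the rule (6.42%). Of these 22316 peaks, 5777 were distal and present in both EZH2 WT lists, and the 1432 were 24.8% of them. A further 4208 of the distal peaks overlapped neither H3K27me3 WT list, and 41 and 96 overlapped only the list of replicate 1 or of replicate 2. The EZH2 and H3K27me3 values of WT cells therefore describe the rule, and only ATRX, the other genotypes and the RNA are independent of it. The sequence was not used, but the rule keeps the sites away from TSSs. The contrast of their sequence with promoters is thus partly set by the rule.

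Chromatin was profiled by CUT&RUN, in which an antibody directs a nuclease to cut out the DNA around its target so that it can be sequenced. WT was the parental line of female MEFs. ATRXΔRBR was 1 CRISPR clone of these cells, with an in-frame deletion of the RNA binding region (RBR) of the chromatin remodeler ATRX, so a difference from WT can also be a difference of this clone. ATRX KD cells carried an shRNA against Atrx and were selected with puromycin. EZH2 and H3K27me3 were profiled in all 3 genotypes and ATRX in WT and ATRXΔRBR, and RNA-Seq was made of all 3, with 2 libraries per group. The replicates are only numbered in the labels, so p-values measure the spread between these libraries.

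The RNA held genes of fibroblasts, with limits. Vim, an intermediate filament of mesenchymal cells, stood between 3900 and 6510 TPM (RSEM's measure of transcript abundance per gene) and the collagen gene Col1a1 between 612 and 1300 TPM in the 6 libraries, whereas Thy1 was at 0 in all of them. Epcam and Ptprc, which define epithelial and blood cells, reached at most 0.25 and 0.15 TPM, and the endothelial cadherin Cdh5 was at 0. Other markers of these cells were read. Cd68, a gene of macrophages, stood between 4.55 and 12.1 TPM in the 6 libraries, and the epithelial cadherin Cdh1 reached 0.91 TPM. The endothelial gene Pecam1 was 0.93 and 1.58 TPM in WT, 5.22 and 3.01 in ATRXΔRBR, with 0.0 in both KD libraries. Sox2, a factor of neural and pluripotent cells, was 43.9 and 37.1 TPM in WT, 18.7 and 17.5 in ATRXΔRBR, with 1.1 and 0.55 in KD. Pou5f1, Nanog and Zfp42, also genes of pluripotent cells, reached at most 0.35 TPM. Of the other fibroblast genes, Col1a2, Pdgfra, Pdgfrb, Fn1, S100a4, Twist1 and Prrx1 were at 10.6 TPM or more in every library. Postn reached at most 1.5 TPM, and Col3a1 was 28.1 and 32.2 TPM in WT, with 0.36 and 0.75 in KD. Atrx RNA was 233 and 141 TPM in WT, 175 and 124 in ATRXΔRBR, with 331 and 512 in the libraries labelled ATRX KD. Its TPM was thus higher in both KD libraries than in WT. The log2 fold change fitted on counts was −0.15 in KD (SE 0.21, adjusted p = 0.605 by edgeR's quasi-likelihood test). The paper describes ATRX as depleted in its KD cells and assessed knockdown lines by western blot, a measure of protein rather than RNA. The peak lists of the KD cells also stood apart. Their largest −log10 q was 170 to 179, against 11.7 to 36.8 in the other 12 lists, and their H3K27me3 peaks covered 6.33 and 5.55 Mb, against 103 and 118 Mb in WT. EZH2 ATRXΔRBR replicate 2 held 11408 peaks, against 22418 in replicate 1.

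EZH2 is the catalytic subunit of PRC2, the complex that places the H3K27me3 mark on histone H3. PRC2 is known to be recruited to CpG-rich DNA, and the mark then spreads into broad domains over silent developmental genes. A site bound by EZH2 within such a domain but far from a gene start can be a CpG island of its own, a silent enhancer or a point within the spread.

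The central 200 bp of 7 peaks are shown because they stand for the classes into which the sites fell outside WT. The Lrfn3, Wnt10a and Lingo1 regions had the highest EZH2 fold enrichment among sites with an EZH2 peak in all 4 ATRXΔRBR and KD lists. Their windows lie at chr7:30373605-30373804, chr1:74803243-74803442 and chr9:56635269-56635468. The Zfp663, Evx1 and Ttc34 regions had the highest among sites with a peak in none of the 4 lists, at chr2:165361002-165361201, chr6:52306001-52306200 and chr4:154825865-154826064. The Arid3b region, at chr9:57831530-57831729, is among the few with an ATRX peak in both WT lists and holds the letters TGANTCA. Each region is named after the protein-coding gene with the nearest TSS. Sequences are of the plus strand of GRCm38 (mm10), 5′ to 3′, with CG dinucleotides in capitals.
Lrfn3 region: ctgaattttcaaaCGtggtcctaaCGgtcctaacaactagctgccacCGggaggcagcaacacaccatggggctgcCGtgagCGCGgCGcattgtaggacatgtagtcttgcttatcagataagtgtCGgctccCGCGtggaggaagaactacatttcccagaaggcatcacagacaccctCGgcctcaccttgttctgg
Wnt10a region: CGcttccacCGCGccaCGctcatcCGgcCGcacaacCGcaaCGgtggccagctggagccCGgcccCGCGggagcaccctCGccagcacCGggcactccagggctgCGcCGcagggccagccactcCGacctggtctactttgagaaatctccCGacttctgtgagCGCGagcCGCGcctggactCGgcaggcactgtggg
Lingo1 region: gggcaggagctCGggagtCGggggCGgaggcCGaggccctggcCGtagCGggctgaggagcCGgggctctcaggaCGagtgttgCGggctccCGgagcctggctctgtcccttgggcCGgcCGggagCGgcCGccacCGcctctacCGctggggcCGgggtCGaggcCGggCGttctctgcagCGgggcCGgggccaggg
Zfp663 region: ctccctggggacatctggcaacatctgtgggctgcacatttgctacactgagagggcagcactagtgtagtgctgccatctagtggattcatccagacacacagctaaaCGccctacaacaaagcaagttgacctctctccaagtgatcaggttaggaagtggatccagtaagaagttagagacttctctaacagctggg
Evx1 region: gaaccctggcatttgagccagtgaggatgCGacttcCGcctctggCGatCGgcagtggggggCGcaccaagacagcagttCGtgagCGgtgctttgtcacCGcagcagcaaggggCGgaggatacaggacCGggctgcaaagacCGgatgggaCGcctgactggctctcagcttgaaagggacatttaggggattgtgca
Ttc34 region: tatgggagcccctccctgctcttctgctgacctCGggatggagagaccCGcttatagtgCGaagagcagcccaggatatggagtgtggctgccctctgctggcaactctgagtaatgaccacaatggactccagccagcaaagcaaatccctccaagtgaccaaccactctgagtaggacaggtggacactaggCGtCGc
Arid3b region: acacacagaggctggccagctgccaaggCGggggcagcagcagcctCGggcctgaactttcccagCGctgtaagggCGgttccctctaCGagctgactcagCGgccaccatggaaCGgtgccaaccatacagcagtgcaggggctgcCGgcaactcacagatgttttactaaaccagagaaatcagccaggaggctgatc

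The retained regions were denser in CG. The windows of the Wnt10a and Lingo1 regions held 22 CG dinucleotides each and that of the Lrfn3 region 11. Among the regions without EZH2 in the other genotypes, the Zfp663 window held 1, the Ttc34 window 5 and the Evx1 window 12, so the classes overlapped. The Wnt10a region (905 bp) lies in a coding exon of Wnt10a, 11375 bp downstream of its TSS. The Lingo1 region (2824 bp) lies in an annotated untranslated region within the bounds of Lingo1, and the Lrfn3 region (552 bp) is intergenic, 10657 bp from the gene. The Evx1 region (844 bp) is intergenic, 6976 bp from the homeobox gene Evx1, and the Zfp663 region (257 bp) is intronic. All 3 retained regions lacked H3K27me3 peaks in both KD lists, although EZH2 was called there.

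Most of the 1432 sites were narrow and lay between genes or in introns. Their median width was 735 bp (quartiles 371 and 1477 bp, range 146 to 4987 bp), and 34.0% were under 500 bp. Distal EZH2 peaks without H3K27me3 had a median width of 358 bp, and EZH2 peaks within 2 kb of a TSS inside H3K27me3 of 1692 bp. Both of these classes were also limited to peaks under 5000 bp that overlap EZH2 WT replicate 2. Wider EZH2 peaks at a TSS are therefore in none of the comparisons with the TSS class. The median distance to the nearest TSS of any gene was 11935 bp, with 334 sites (23.3%) at 2 to 5 kb, 629 (43.9%) at 5 to 20 kb, 426 (29.7%) at 20 to 100 kb and 43 (3.0%) beyond. The EZH2 fold enrichment in WT replicate 1, the ratio of reads in a peak to the local background, had a median of 4.77 and ranged from 2.9 to 11.6. At the limits of the rule, the widest site (4987 bp, chr2:105132022-105137008) lies in an intron of Wt1, and the site nearest to a TSS lies 2005 bp from that of Tunar. Just outside were a 5007 bp peak whose nearest coding gene is Tbca and a peak 1996 bp from a TSS near Samd9l.

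By the annotation at the midpoint, 681 sites were intergenic (47.6%), 583 intronic (40.7%), 71 in a coding exon (4.96%), 57 in an untranslated region (3.98%) and 40 in an exon of a noncoding gene (2.79%). Distal EZH2 peaks without H3K27me3 were intergenic in 38.6% and intronic in 51.0% of cases. Chromosomes 2, 5, 4 and 9 held the most sites, with 147, 143, 138 and 117. Chromosome 2 held 10.3% of the sites against 8.08% of all EZH2 WT replicate 1 peaks, and chromosome 4 held 9.64% against 6.69%. The X chromosome held 16 sites (1.12%, against 1.95% of all EZH2 peaks and 0.879% of distal peaks without H3K27me3).

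The sites sat in wide H3K27me3 domains. They fell in 1115 H3K27me3 peaks of WT replicate 1 with a median width of 9016 bp, against 1213 bp over the whole list, and 85.9% of the sites lay inside them with their whole length. A wide peak is more easily overlapped by a chosen site than a narrow peak, so the rule itself favours wide domains. Of these domains, 928 held 1 site and 187 held 2 or more, with 504 sites (35.2%) between them. Only 29.9% of the domains contained a TSS, and 37.2% of the sites lay in such a domain. The median distance to the nearest EZH2 peak at a TSS was 22559 bp, and 33.2% of the sites had such a peak within 10 kb.

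The 3 domains with the most sites held 7 each. The domain at chr15:102891527-103142078 (250552 bp) covers the Hoxc cluster, whose genes set position along the body axis. It holds the TSSs of 9 Hoxc genes, all of which were between 0 and 0.15 TPM in the 6 RNA libraries. Of its 7 sites, 5 had an EZH2 peak in both ATRXΔRBR lists and 0 in both KD lists, and all 7 kept an H3K27me3 peak in both ATRXΔRBR lists. A domain at chr12:72844982-72961661 (116680 bp) covers Six6, a homeobox gene of eye development, which was at most 0.04 TPM. There, 4 of 7 sites had EZH2 in both ATRXΔRBR lists and 1 in both KD lists. The third, at chr13:119982588-120071598 (89011 bp), holds the predicted genes Gm36079 and Gm21188, which were at 0 TPM in every library. Predicted genes of this kind can have near copies, so reads could be split between them.

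ATRX was almost absent from these sites in both genotypes in which it was mapped. An ATRX peak overlapped 11 of the 1432 sites (0.768%, 95% Wilson interval 0.429 to 1.37%) in WT replicate 1 and 4 (0.279%, 0.109 to 0.716%) in WT replicate 2. In ATRXΔRBR the numbers were 5 (0.349%, 0.149 to 0.815%) and 7 (0.489%, 0.237 to 1.01%). The mean shares, 0.524% in WT and 0.419% in ATRXΔRBR, differed by less than the WT replicates did (exact two-sided permutation test over the 4 libraries, p = 1.0, adjusted p = 1.0 over the 7 tests on the sites made here). The intervals cover counting error only and not the spread between libraries. Under the alternatives run, the mean share stayed low, from 0.192% with 50% of the peak covered to 1.27% with H3K27me3 asked for in at least 1 WT list for WT, and from 0.14% with the midpoint covered to 1.05% for ATRXΔRBR.

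The low share was not particular to distal sites. EZH2 peaks within 2 kb of a TSS inside H3K27me3 had an ATRX peak in 1.8% and 0.257% of cases in WT and in 1.41% and 0.706% in ATRXΔRBR. Distal EZH2 peaks without H3K27me3 carried ATRX far more often. ATRX overlapped 52.2% of them in WT replicate 1 and 36.5% in WT replicate 2, with 33.9% and 33.1% for ATRXΔRBR, and over all EZH2 WT replicate 1 peaks the background was 26.7%, 14.4%, 20.8% and 13.7%. The share at the sites inside H3K27me3 was lower in 4 of 4 libraries, with differences of −51.4 to −32.6 percentage points. The mean difference was −38.5 points, and the exact two-sided sign-flip test gave p = 0.125, the smallest that 4 libraries allow (adjusted p = 0.438). The 3 sites with the highest EZH2 enrichment among those with ATRX in both WT lists were the Arid3b, Vgf and Sfswap regions. All 3 had an EZH2 peak in both ATRXΔRBR lists, while an H3K27me3 peak was in both for the Vgf region and in neither for the Arid3b and Sfswap regions.

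**Figure D1:**
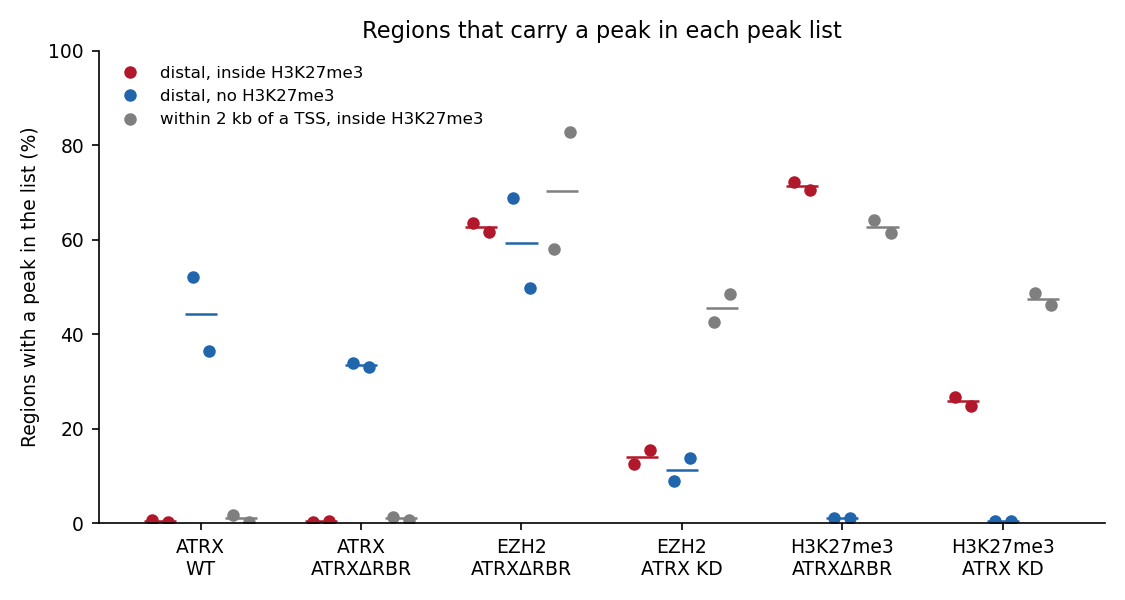
Percent of sites that overlap a peak in each deposited list, with 1 point per library and a line at the mean of the 2, for distal EZH2 peaks inside H3K27me3 and the 2 classes most like them. ATRX lies near 0 inside H3K27me3 and between 33.1% and 52.2% at distal peaks without it, and EZH2 in KD lies between 12.6% and 15.4% at the sites.

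In ATRXΔRBR cells, most sites still had EZH2 in at least 1 list. A peak was present at 910 sites in replicate 1 (63.5%) and at 884 in replicate 2 (61.7%), against 68.0% and 47.4% of all EZH2 WT replicate 1 peaks. Both lists had a peak at 625 sites (43.6%), 1 list at 544 (38.0%) and neither at 263 (18.4%). The share at the sites lay below the background in replicate 1 and above it in replicate 2, so no order against other EZH2 peaks can be read from these lists. H3K27me3 was present at 1034 sites (72.2%) and 1009 sites (70.5%), in both lists at 958 (66.9%) and in neither at 347 (24.2%). The background of all EZH2 peaks was 16.4% and 15.6%, but the sites were chosen for H3K27me3 in WT and the other EZH2 peaks were not.

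The libraries labelled ATRX KD had few peaks at these sites. EZH2 was called at 180 sites (12.6%) in replicate 1 and at 221 (15.4%) in replicate 2, against backgrounds of 20.1% and 26.1% of all EZH2 WT replicate 1 peaks. Both lists had a peak at 146 sites (10.2%) and neither at 1177 (82.2%). H3K27me3 was called at 382 sites (26.7%) and 357 sites (24.9%), in both lists at 270 (18.9%) and in neither at 963 (67.2%), with backgrounds of 7.41% and 7.03%. The mean EZH2 share was 14.0% (SD 1.98, n = 2) in KD and 62.6% (SD 1.27, n = 2) in ATRXΔRBR, a difference of −48.6 points. For H3K27me3 the means were 25.8% (SD 1.27, n = 2) and 71.3% (SD 1.2, n = 2), a difference of −45.5 points. The KD shares depended on how overlap was counted. With 50% of the peak covered they were 4.27% for EZH2 and 12.3% for H3K27me3, and with the midpoint covered 8.52% and 14.1%, while at a q-value of 0.01 or less H3K27me3 was at 11.3%. Neither pair of groups overlapped, and both exact permutation tests gave p = 0.333, the smallest that 2 against 2 libraries allow (adjusted p = 0.467 each). The KD lists were also shorter, with 5376 and 7093 EZH2 peaks and 7241 and 6336 H3K27me3 peaks, and the part of list length in these shares was not tested.

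Over the 4 EZH2 lists of ATRXΔRBR and KD, 250 sites (17.5%) had no peak, 482 (33.7%) had 1, 493 (34.4%) had 2, 101 (7.05%) had 3 and 106 (7.4%) had all 4. The fates in the 2 genotypes went along with each other. Of the 625 sites with EZH2 in both ATRXΔRBR lists, 106 (17.0%) had it in both KD lists, and of the 263 with it in neither, 6 (2.28%). EZH2 and H3K27me3 also went together. Of the 625 sites, 83.2% had H3K27me3 in both ATRXΔRBR lists, against 39.5% of the 263 without EZH2. In KD, 54.1% of the 146 sites with EZH2 in both lists had H3K27me3 in both, against 13.1% of the 1177 with EZH2 in neither. These shares are a description, since the lists of a genotype share cells and peak width runs through them.

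Peak width separated the fates, above all in KD. Among sites under 500 bp, EZH2 was called at 2.05% and 4.52% in the KD replicates, and the share was 6.41% and 6.92% at 500 to 1000 bp, 14.8% and 17.6% at 1000 to 2000 bp, and 42.0% and 49.8% at 2000 to 5000 bp. For H3K27me3 in KD, the narrowest sites stood at 11.7% and 9.03% and the widest at 51.9% and 54.1%. In ATRXΔRBR, EZH2 went from 61.2% and 44.8% at the narrowest to 77.9% and 92.6% at the widest sites. Wide sites offer more bases for an overlap of 1 bp, and the part of this in the shares was not tested. EZH2 peaks within 2 kb of a TSS inside H3K27me3 showed the same order at higher values in KD, from 5.32% in both replicates at under 500 bp to 65.6% and 73.7% at 2000 to 5000 bp.

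**Figure D2:**
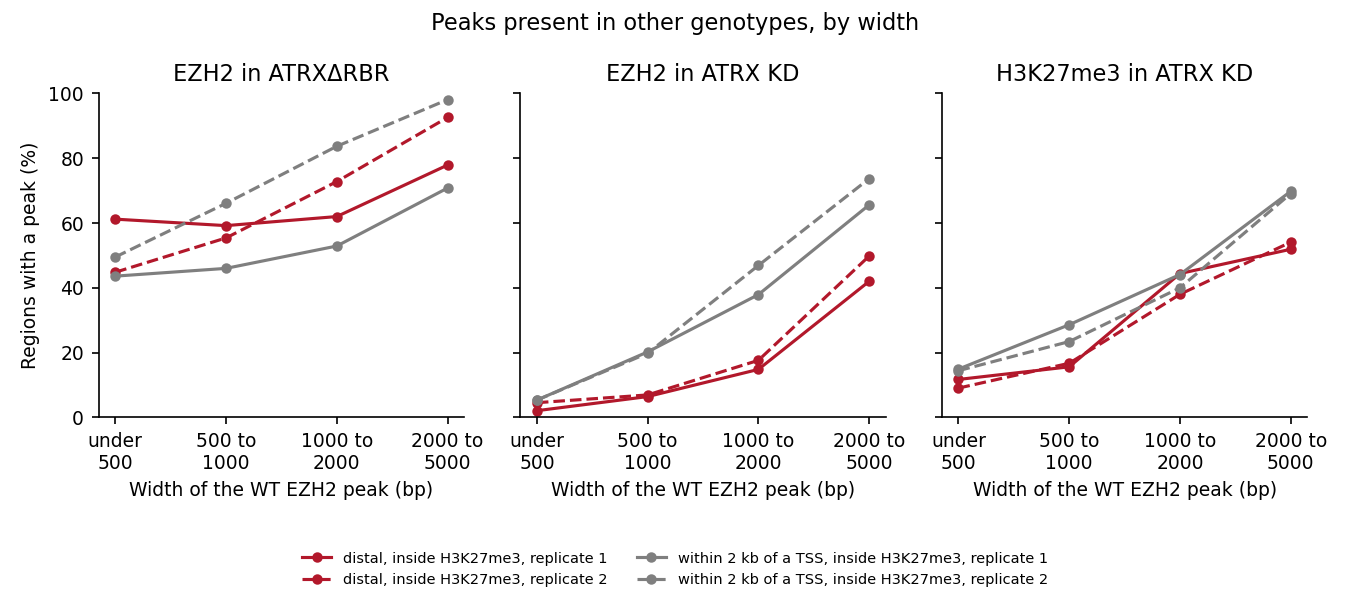
Percent of EZH2 peaks with a peak in each ATRXΔRBR or KD list against the width class of the WT peak in bp, with 1 line per class and library (solid for replicate 1, dashed for replicate 2). In KD, the EZH2 share of the distal sites inside H3K27me3 goes from 2.05% and 4.52% in the narrowest class to 42.0% and 49.8% in the widest.

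Over all widths, the sites had EZH2 in KD less often than peaks at a TSS inside H3K27me3, at which it was 42.6% and 48.6%. In ATRXΔRBR the 2 replicates disagreed, with the distal sites 5.49 points higher in replicate 1 and 21 points lower (−21 points) in replicate 2. Over the 4 libraries the mean difference was −19.7 points, and the exact sign-flip test gave p = 0.25 (adjusted p = 0.467). It was −5.12 points when 50% of the peak had to be covered and −12.3 without replicate 2. Against distal peaks without H3K27me3 the mean difference was 3.01 points, higher in 3 of 4 libraries (exact p = 0.5, adjusted p = 0.583), and its sign changed with the way overlap was counted. Those peaks were narrower, and below 2000 bp the order in KD was the opposite within each width class. At 500 to 1000 bp, EZH2 was called in KD at 6.41% and 6.92% of the sites, against 17.6% and 27.1% of those peaks. At 1000 to 2000 bp it was 14.8% and 17.6% against 29.4% and 40.3%. From 2000 bp the sites were higher in KD, but only 8 of those peaks were that wide.

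The distance to a TSS went with smaller differences. In KD, EZH2 was called at 10.5% and 10.8% of the sites at 2 to 5 kb and at 16.2% and 21.8% of those at 20 to 100 kb. The 71 sites in coding exons had the highest KD shares by place, 29.6% and 39.4%, against 11.2% and 14.0% for intergenic and 11.1% and 13.6% for intronic sites. The coding exon sites were also wider (median 1333 bp) and richer in CG, with a median GC content of 68.0%.

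Over all widths, the H3K27me3 domains around the sites held a peak in the other genotypes more often than other H3K27me3 peaks did, which were also narrower. Within width classes this order held in KD but not in ATRXΔRBR. In ATRXΔRBR, 77.5% and 75% of the 1115 domains had an H3K27me3 peak, and 70.8% and 66.9% of their summed length was covered. For the other 34858 H3K27me3 WT replicate 1 peaks, with a median width of 1169 bp, the shares were 52.5% and 47.0%, with 55.9% and 50.5% of the length covered. In KD, 55.7% and 52.7% of the domains had a peak, but 5.86% and 5.32% of the length was covered. Of the other peaks, 10.4% and 9.31% had a peak in KD, with 3.71% and 3.35% of the length covered. Among domains of 20 kb or more, 81.3% and 77.4% of those with a site had a peak in KD, against 51.8% and 54.5% of those without. In ATRXΔRBR the order was the opposite in each width class from 2 kb up. At 10 to 20 kb the shares were 87.7% and 87.0% with a site against 92.9% and 91.3% without. At 20 kb or more the difference was small, 96.4% and 95.6% against 97.4% and 96.7%. Coverage in KD at 20 kb or more was 4.3% and 3.73% against 2.77% and 2.61%.

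The same rule applied to the other genotypes gave fewer sites. It found 714 in ATRXΔRBR, of which 95.5% and 97.5% overlapped the EZH2 WT lists and 96.2% and 96.4% the H3K27me3 WT lists. In KD it found 197, of which 55.3% and 51.8% overlapped the EZH2 WT lists and 46.7% and 45.7% the H3K27me3 WT lists. The ATRXΔRBR sites were thus nearly all within regions called in WT, while more KD sites lay outside each WT H3K27me3 list than within it.

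The sequence of the sites, which the rule keeps over 2 kb from every TSS, was poorer in CG than that of promoters. In the central 200 bp, the median GC content was 50.5% (quartiles 44.0% and 56.5%), against 51.0% at distal peaks without H3K27me3, 62.0% at peaks near a TSS inside H3K27me3 and 56.0% over all EZH2 WT replicate 1 peaks. The ratio of observed to expected CG dinucleotides, which is high in CpG islands, had a median of 0.34, against 0.281, 0.661 and 0.523 in those classes. It was over 0.6 at 21.5% of the sites and at 57.2% of the peaks near a TSS inside H3K27me3. H3K27me3 WT replicate 1 peaks as a whole had a median GC content of 42.0% and a ratio of 0.152. The sites were thus richer in CG than the H3K27me3 list they lie in and poorer than EZH2 peaks at a TSS. Repeat-masked bases made up 13.0% of the windows, against 26.7% in the H3K27me3 list.

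CG content went with the fate of a site. Sites with EZH2 in none of the 4 ATRXΔRBR and KD lists had a median GC content of 50%, a CG ratio of 0.293 and a width of 537 bp. Sites with it in all 4 had 56.8%, 0.552 and 2509 bp. Among sites of 2000 to 5000 bp, where width differs less, the 93 with EZH2 in both KD lists had a GC content of 59.0% and a CG ratio of 0.606, against 51.5% and 0.396 in the 112 with it in neither. For H3K27me3 in ATRXΔRBR the order was the opposite, with 52.5% GC at the 347 sites without a peak in either list and 49.5% at the 958 with a peak in both. By class of GC content, H3K27me3 was called in ATRXΔRBR at 82.7% and 80.4% of sites below 45% GC and at 59.7% and 57.7% of sites at 60% or more.

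The 2 EZH2 ATRXΔRBR lists ran in opposite directions with GC content. From sites below 45% to sites of 60% GC or more, the EZH2 share went from 69.4% to 54.4% in replicate 1 and from 49.5% to 77.0% in replicate 2. The 2 lists as a whole differed in the same way, with median GC contents of 54.0% and 61.5%. A relation of EZH2 retention in ATRXΔRBR to GC content was therefore not read from these libraries. In KD both replicates went the same way, from 7.07% and 8.38% to 29.0% and 35.9%, and the median GC content of both KD lists was 63.0%.

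The letters TGANTCA, the core bound by AP-1 factors such as Fos and Jun, were searched in the same windows. This sequence reads the same on both strands. It was present in 93 of the 1432 sites (6.49%), against 43.1% of distal peaks without H3K27me3, 19.4% of all EZH2 WT replicate 1 peaks, 4.09% of windows at the TSSs of protein-coding genes and 5.18% of H3K27me3 WT replicate 1 peaks. The share at the sites was thus near that of H3K27me3 peaks. Sites with the letters had an ATRX peak in 5.38% (WT replicate 1) and 2.15% (WT replicate 2) of cases, and sites without them in 0.448% and 0.149%. In ATRXΔRBR the shares were 1.08% and 3.23% with the letters and 0.299% and 0.299% without. With 93 sites that have the letters, these shares rest on a handful of sites. Sites with the letters were also narrower, with a median of 379 bp against 764 bp. G-rich stretches of 4 runs of 3 or more G, 1 to 7 bases apart on either strand, which can form G quadruplexes, were in 5.73% of the sites, 6.8% of distal peaks without H3K27me3 and 19.0% of peaks near a TSS inside H3K27me3. A match of letters is a description of the sequence and not a binding site.

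**Figure D3:**
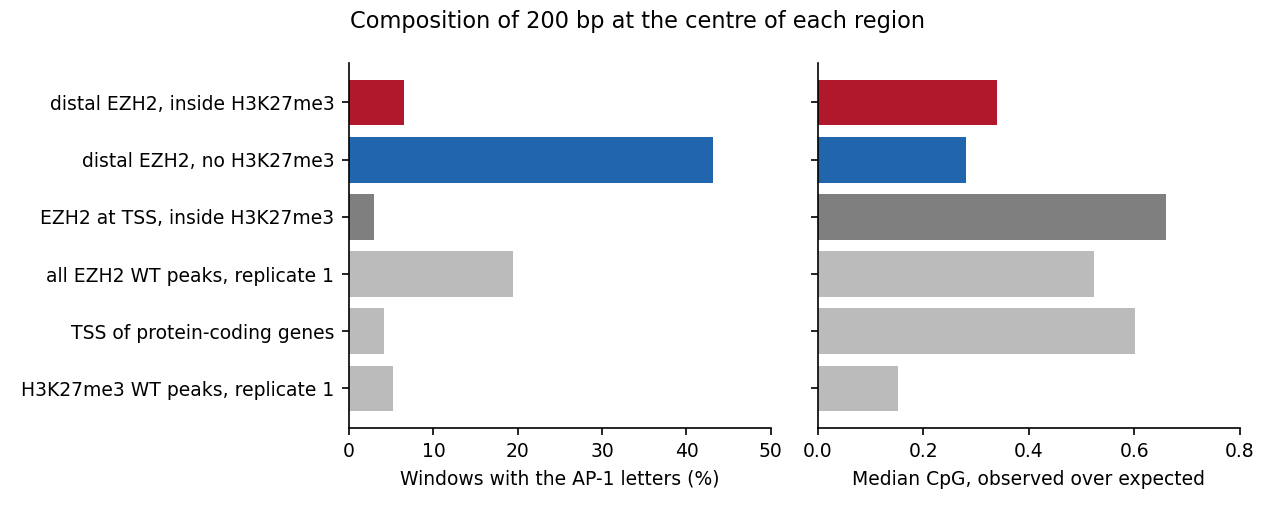
Percent of central 200 bp windows with the AP-1 letters TGANTCA (left) and median ratio of observed to expected CG dinucleotides (right) in 6 classes of regions. The sites inside H3K27me3 have the letters in 6.49% of windows, near the H3K27me3 list and far below the 43.1% of distal peaks without H3K27me3, and a CG ratio of 0.34.

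The genes nearest to the sites were mostly silent in all genotypes. The 1432 sites had 907 nearest protein-coding genes by TSS, of which 906 were in the RNA files, 632 were nearest to 1 site and 275 to 2 or more. The median level was 0.06 and 0.05 TPM in WT, 0.0 and 0.0 in ATRXΔRBR, with 0.0 and 0.02 in KD. Between 67.7% and 69.4% of the genes were under 1 TPM in the 6 libraries, against 28.8% to 30.8% of the genes nearest to distal peaks without H3K27me3 and 47.6% to 49.0% of all protein-coding genes. Of the genes nearest to EZH2 peaks within 2 kb of a TSS inside H3K27me3, 72.8% to 78.7% were under 1 TPM, so low RNA was at least as frequent there. The median log2(TPM + 1) was lower than for distal peaks without H3K27me3 in 6 of 6 libraries, with a mean difference of −3.98 (SD 0.224, range −4.19 to −3.63). The exact two-sided sign-flip test gave p = 0.0312, the smallest that 6 libraries allow, and the adjusted p over the 7 tests was 0.219. The 2 gene sets share 210 genes, 23.2% of the former and 6.5% of the latter. In bulk RNA, fewer cells of a type and less RNA per cell cannot be told apart.

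The difference to distal peaks without H3K27me3 depended on which gene was taken. With the nearest gene of any type in place of the nearest protein-coding gene, the difference was −0.287. The nearest coding TSS lay a median of 19982 bp from the site and more than 50 kb away for 405 sites, and for those within 50 kb the difference was −4.28. The 907 genes also split by the state of their own TSS in WT. Of them, 406 (44.8%) had EZH2 and H3K27me3 there in both replicates, with a median of 0.0 TPM in each library, and 178 (19.6%) had H3K27me3 but not EZH2 in both replicates, also at 0.0. The 174 genes (19.2%) with EZH2 but not H3K27me3 in both had medians of 30.3 and 35.0 TPM in WT. The remaining 149 (16.4%) had neither of them in both replicates and a median of 0.0 TPM. A peak in 1 of the 2 lists is possible in the last 3 groups.

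**Figure D4:**
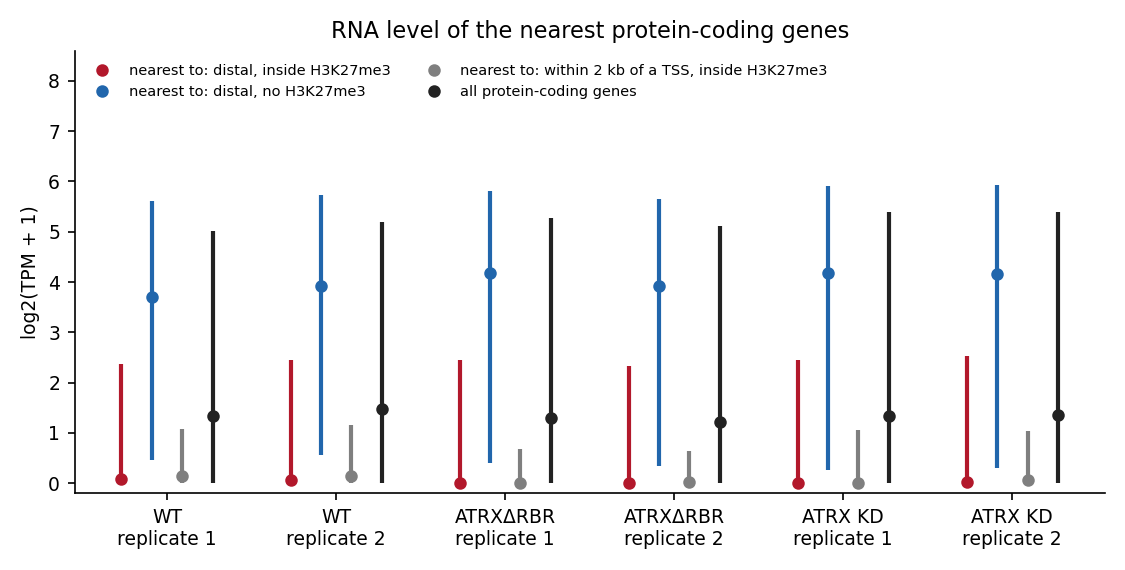
Median (points) and quartiles (bars) of log2(TPM + 1) of the protein-coding genes nearest to each class of EZH2 peak in each of the 6 RNA libraries. The genes nearest to the distal sites inside H3K27me3 have medians near 0 in every library, while those nearest to distal peaks without H3K27me3 have medians between 3.71 and 4.19.

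Developmental transcription factors were frequent among the nearest genes. Members of these families made up 99 of the 907 genes (10.9%), against 2.35% of the genes nearest to distal peaks without H3K27me3, 5.57% of those nearest to peaks near a TSS inside H3K27me3 and 1.46% of all protein-coding genes. The TSS class leaves out EZH2 peaks of 5000 bp or more. In ATRXΔRBR, 29 of the 99 were tested, with 1 higher and 5 lower, and in KD 30 were tested, with 2 higher and 7 lower. Over all genes tested, 6.85% were called in ATRXΔRBR and 33.0% in KD. The median log2 fold changes were −0.102 and −0.211, against −0.0157 and −0.0197 over all genes tested and 0.0735 and −0.181 over the same families among all protein-coding genes. Of these families, 155 genes were tested in each comparison, with 7 higher and 15 lower in ATRXΔRBR and 25 higher and 35 lower in KD. Channels, transporters and adhesion genes of neurons were 41 of the 907 (4.52%, against 1.72% of all protein-coding genes). They made up 1.64% of the genes nearest to distal peaks without H3K27me3 and 6.37% of those nearest to peaks near a TSS inside H3K27me3. Of the 41, 10 were tested in ATRXΔRBR with 0 higher and 2 lower, and 12 in KD with 2 higher and 3 lower. Beside them stand the same 6.85% and 33.0% of all genes. Secreted signals and their receptors were 22 (2.43%, against 1.05%), with 2.1% and 3.88% in those 2 classes of peaks. Of the 22, 7 were tested in each comparison, with 1 higher and 1 lower in ATRXΔRBR, and 3 higher and 2 lower in KD. Both kinds of gene were thus more frequent near TSS peaks inside H3K27me3 than near the sites. With so few genes tested, no difference from the background is read from these counts.

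Of the 10 genes with the most sites, 4 were developmental transcription factors, namely Pax2, Pax7, Dmrt3 and Zic1. Pax2, a paired-box factor of kidney and eye, was nearest to 10 sites at 19160 to 82635 bp from its TSS. Its RNA was at 0 in 5 libraries and at 0.07 TPM in ATRXΔRBR replicate 1. Of its sites, 8 had EZH2 in both ATRXΔRBR lists and 2 in both KD lists. Pax7, a paired-box factor of muscle stem cells, and Dmrt3, a factor of spinal interneurons, each had 7 sites and were at 0 TPM in every library. Zic1, a zinc finger factor of the neural tube, also had 7 sites but was expressed, at 43.5 and 60 TPM in WT, 36.7 and 41.7 in ATRXΔRBR, with 50.3 and 44.0 in KD. All 7 Zic1 sites kept H3K27me3 in both ATRXΔRBR lists, 1 kept EZH2 in both, and Zic1 passed the test in neither comparison (adjusted p = 0.187 and 0.11). The predicted genes Gm13090, 1700025C18Rik and 4930535I16Rik had 9 sites each and at most 2.08 TPM. Calcoco1, Smug1 and Hif1an, with 7 sites each and 17.4 to 49.0 TPM, neighbour the Hoxc cluster (Calcoco1 and Smug1) and Pax2 (Hif1an). Calcoco1 was 19.2 and 24.0 TPM in WT and 49.0 and 42.4 in ATRXΔRBR, and rose there by 1.04 on the log2 scale (SE 0.17, adjusted p = 0.0109).

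The most strongly expressed nearest genes were general ones. Anxa2, Atp5g3 and Npm1 stood at 1830, 1200 and 958 TPM in WT replicate 1. The sites lay far from most of them, at 52033 bp for Anxa2, 54296 to 158219 bp for the 5 sites of Atp5g3 and 190417 bp for Gdi2, with Shmt2 (3795 bp) the nearest of the 10. In ATRXΔRBR the lowest adjusted p of the 10 was 0.0561 (Shmt2), while Anxa2, Npm1, Psat1, Srsf2, Shmt2, Eif3d and Tbca fell in KD, with log2 fold changes of −0.44 to −1.0. The KD calls of Anxa2, Srsf2, Shmt2 and Eif3d were lost when either KD library was left out.

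In ATRXΔRBR, the nearest genes that passed the test were more often lower than higher. Of the 907 genes, 373 passed the filter on low counts, and 17 were higher (4.56%) and 40 lower (10.7%) at an adjusted p under 0.05. Over all genes tested, 2.79% were higher and 4.07% lower (6.85% in either direction), and over the protein-coding genes tested 3.35% and 5.02% (8.37% in either direction). With at least 10 counts in every library, which removes genes at 0 in a group, 265 of the nearest genes were tested, with 11 higher and 13 lower. Genes nearest to peaks near a TSS inside H3K27me3, which share 337 genes with the 907 (37.2% of these and 24.7% of the other list), were higher in 5.84% and lower in 24.9%. The 373 are the genes with enough reads in at least some libraries and do not stand for all 907. Among genes of sites with EZH2 in neither ATRXΔRBR list, 4 of 83 tested were higher and 12 lower (14.5%). With EZH2 in 1 list, 7 of 163 were higher and 14 lower (8.59%), and with EZH2 in both, 10 of 199 were higher and 20 lower (10.1%). A gene with several sites can be in more than 1 of these groups, and the difference between them was not tested.

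The largest decreases in ATRXΔRBR were of genes read in WT and at 0 in both ATRXΔRBR libraries, so folds are lower bounds set against 3 counts over the group. Gap43, a growth-cone protein of neurons, was 11.6 and 7.74 TPM in WT, 0.0 and 0.0 in ATRXΔRBR, with 0.53 and 0.56 in KD, at least 48.7-fold lower in ATRXΔRBR (adjusted p = 0.00203). Sim2, a bHLH-PAS transcription factor, was 2.53 and 2.57 TPM in WT and 0.0 in both ATRXΔRBR libraries, at least 37.3-fold lower (adjusted p = 0.00148). Lmo1, a LIM-only cofactor, was 6.5 and 7.38 TPM in WT and at 0 in ATRXΔRBR, at least 26.8-fold lower (adjusted p = 0.00244). Zfp612, a zinc finger gene, was 1.06 and 1.02 TPM in WT, at least 19.4-fold lower in ATRXΔRBR (adjusted p = 0.0042). For each of these genes, both WT libraries lay above both ATRXΔRBR libraries, which follows from the choice of called decreases at 0 in ATRXΔRBR and adds no support. The others among the 10 largest were Wnt10a, Aff3, Phyhipl, Rasgef1b, Tchh (trichohyalin of the hair follicle) and the small heat shock gene Hspb1, all at 0 in ATRXΔRBR with bounds from 8.01-fold (Hspb1) to 33.0-fold (Wnt10a).

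Wnt10a, a secreted Wnt ligand, is where the sites and the RNA can be set side by side in both genotypes. It was 3.78 and 4.53 TPM in WT and 0.0 in all 4 other libraries, at least 33.0-fold lower in ATRXΔRBR (adjusted p = 0.00243) and at least 43.6-fold lower in KD (adjusted p = 0.00119). It had 5 sites, at 2953 to 14951 bp from its TSS. EZH2 was present in both ATRXΔRBR lists at 4 of them and in both KD lists at 2, and H3K27me3 in both ATRXΔRBR lists at 4 and in both KD lists at 0. The Wnt10a region printed above is the site in its coding exon. Lrfn3, a neuronal adhesion gene whose region is also printed above, was 4.59 and 2.44 TPM in WT, 0.08 and 0.15 in ATRXΔRBR, with 4.49 and 4.68 in KD. It fell by 4.87 on the log2 scale in ATRXΔRBR (SE 0.63, adjusted p = 0.00351) and did not pass the test in KD (0.14, SE 0.36, adjusted p = 0.793). EZH2 was called at its site in all 6 lists.

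Genes that rose in ATRXΔRBR were fewer and mostly low in WT. Pax3, a paired-box factor of neural crest and muscle precursors, was 0.09 and 0.11 TPM in WT, 6.82 and 7.56 in ATRXΔRBR and 0.0 in both KD libraries, with a log2 fold change of 6.23 in ATRXΔRBR (SE 0.41, adjusted p = 0.000335). It had 4 sites, of which 0 had EZH2 in both ATRXΔRBR lists and 2 in neither. Sgsm1, a modulator of small GTPases, was 0.86 and 1.38 TPM in WT, 22.7 and 21.4 in ATRXΔRBR, with 10.6 and 12.3 in KD, and passed the test in both (4.66, SE 0.25, adjusted p = 0.000214, and 3.48, SE 0.24, adjusted p = 0.000201). Its site kept H3K27me3 in both ATRXΔRBR lists. Sybu, a linker of cargo to kinesin, was 4.04 and 4.66 TPM in WT and 22.9 and 23.1 in ATRXΔRBR (log2 fold change 2.33, SE 0.2, adjusted p = 0.000747), and its site, 141153 bp away, had EZH2 and H3K27me3 in both ATRXΔRBR lists. The remaining genes among the 10 largest were Kif26a, H60b, Extl1, Agap2, Epha8, Tcn2 (a vitamin carrier) and Podxl, with log2 fold changes from 1.8 to 4.3. The call of Kif26a was lost in DESeq2 (adjusted p = 0.148) and without WT replicate 1 (0.0547 by edgeR), and that of Extl1 in DESeq2 (0.0826) and without ATRXΔRBR replicate 2 (0.0617 by edgeR). H60b belongs to a family of similar genes, between which reads may be split.

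In the libraries labelled ATRX KD, 394 of the 907 genes were tested, with 62 higher (15.7%) and 89 lower (22.6%). Over all genes tested, 15.2% were higher and 17.8% lower (33.0% in either direction), and over the protein-coding genes tested 18.4% and 21.1% (39.5% in either direction). The share of the nearest genes that passed was thus near the background in this comparison. By the fate of EZH2, 53 of 324 were higher and 76 lower for sites with EZH2 in neither KD list, 9 of 50 were higher and 8 lower with it in 1, and 2 of 63 were higher and 14 lower for sites with it in both. The comparison shares its WT libraries with that of ATRXΔRBR.

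Several transcription factors read in WT were at 0 in both KD libraries. Irx1, an Iroquois homeobox factor, was 8.71 and 10.8 TPM in WT, 11.1 and 7.09 in ATRXΔRBR and 0.0 in KD, at least 88.0-fold lower (adjusted p = 0.000326). Bhlhe22, a factor of neuronal differentiation, was 5.13 and 7.22 TPM in WT, 1.55 and 1.29 in ATRXΔRBR and 0.0 in KD, at least 107-fold lower in KD (adjusted p = 0.000312), and had a log2 fold change of −2.17 in ATRXΔRBR (SE 0.28, adjusted p = 0.00395). Tbx1, a factor of the pharyngeal arches, was 10.2 and 8.09 TPM in WT, 17.4 and 23.1 in ATRXΔRBR, with 0.0 and 0.06 in KD. With 1 count over the KD libraries, its ratio of WT to KD was 257 with a counting interval of 46.1 to 10100. The kinase gene Hunk was 7.05 and 6.58 TPM in WT, 8.16 and 7.02 in ATRXΔRBR and 0.0 in KD, at least 181-fold lower (adjusted p = 0.000154).

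The sites of these 4 genes were without EZH2 in KD, as 82.2% of all sites were. The single sites of Hunk, Bhlhe22, Irx1 and Tbx1, at 3109 to 5827 bp from the TSS, had EZH2 in neither KD list, and that of Tbx1 had H3K27me3 in both. Nkx6-1, a homeobox factor of the pancreas, had 4 sites and was 0.94 and 0.82 TPM in WT, 0.36 and 0.04 in ATRXΔRBR and 0.0 in KD, at least 14.7-fold lower (adjusted p = 0.00476). Of the Nkx6-1 sites, 3 had EZH2 in neither KD list. Rorb, Elovl3 and Insl3 were likewise at 0 in both KD libraries, with bounds of 24.4-fold, 16.3-fold and 12.1-fold. The single sites of Rorb and Insl3 had EZH2 in neither KD list, whereas that of Elovl3 had it in both. Genes outside this set moved in the KD libraries too, such as Sox2, a factor of neural and pluripotent cells, at 43.9 and 37.1 TPM in WT, 18.7 and 17.5 in ATRXΔRBR, with 1.1 and 0.55 in KD, and the collagen gene Col3a1, at 28.1 and 32.2, 20.3 and 15.8, and 0.36 and 0.75 TPM. The part of a difference between the cell populations in these results was not tested.

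Among genes that rose in KD, Soga3 was at 0 in the 4 WT and ATRXΔRBR libraries and at 2.28 and 2.55 TPM in KD, at least 24.7-fold higher (adjusted p = 0.00206). Its site, 2809 bp from the TSS, had EZH2 in none of the 4 lists. Syt2, a calcium sensor of synaptic vesicles, was 0.08 and 0.1 TPM in WT, 0.5 and 0.31 in ATRXΔRBR, with 1.55 and 1.63 in KD (log2 fold change 3.97, SE 0.41, adjusted p = 0.000827), while its site had EZH2 and H3K27me3 in both KD lists. Hoxb13, the most posterior gene of the Hoxb cluster, was 0.51 and 0.08 TPM in WT, 0.62 and 1.93 in ATRXΔRBR, with 3.74 and 3.38 in KD (3.24, SE 0.62, adjusted p = 0.00792). Its 3 sites had EZH2 in neither KD list and H3K27me3 in both ATRXΔRBR lists. Prkcz, an atypical protein kinase C, had 1 count over the WT libraries and 1.35 to 2.39 TPM in KD, a ratio of 40.1 with a counting interval of 7.19 to 1580. Ppara, a nuclear receptor of fatty acid metabolism, had a ratio of 27 (4.85 to 1070). Tnfrsf14, Dynlt1b, Rab37 and Dmbx1 completed the 10 largest with Sgsm1. The calls of Tnfrsf14 and Dynlt1b were lost in DESeq2 (adjusted p = 0.0657 and 0.0945). Dynlt1b has near-identical copies, so its value is uncertain.

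**Figure D5:**
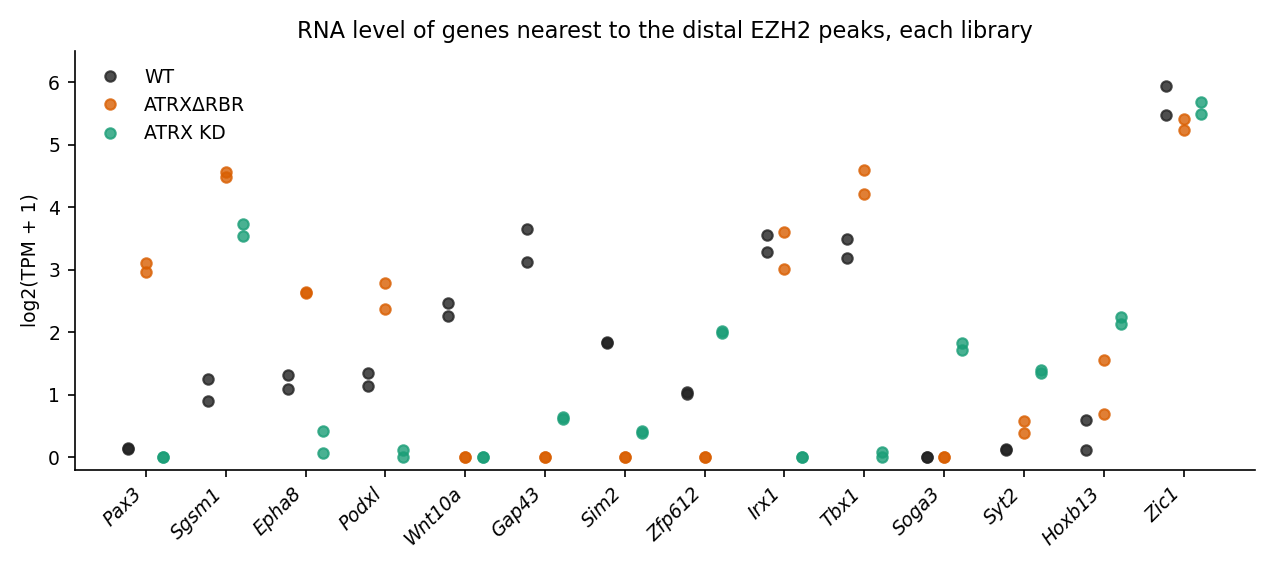
RNA level as log2(TPM + 1) of named genes nearest to the distal EZH2 peaks in each of the 6 libraries. Wnt10a is at 0 in all ATRXΔRBR and KD libraries, Pax3 rose in ATRXΔRBR, and Irx1 is at 0 in the KD libraries alone.

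Genes of the polycomb machinery themselves moved little in ATRXΔRBR. Ezh2 was 204 and 177 TPM in WT, 246 and 206 in ATRXΔRBR, with 243 and 236 in KD, with log2 fold changes of 0.28 (SE 0.16, adjusted p = 0.392) and 0.37 (SE 0.11, adjusted p = 0.0434). Of 6 PRC2 core genes, 1 was higher and 0 lower in ATRXΔRBR, and 2 were higher and 2 lower in KD, where 33.0% of all genes and 39.5% of protein-coding genes were called. Ezh1, the paralog of Ezh2, rose in both (1.03, SE 0.19, adjusted p = 0.0161, and 1.26, SE 0.13, adjusted p = 0.000926). Eed, a subunit that binds the mark, was 125 and 118 TPM in WT, 98.6 and 91.2 in ATRXΔRBR, with 72.3 and 84.0 in KD, and fell by 0.54 in KD (SE 0.15, adjusted p = 0.0305), a call lost without KD replicate 1 (adjusted p = 0.258) or KD replicate 2 (0.139). Suz12 passed in neither comparison.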

How the data were processed

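CUT&RUN reads were aligned by the authors to mm10 (GRCm38) using Bowtie2, and MACS2 in broad mode with a cutoff of 0.1 gave a peak list for every library. The deposited fold enrichment is a ratio of reads to local background, and the −log10 p and −log10 q values deposited with it are MACS2's, all averaged over a peak. Whether a control library entered the calls is not given in the sources used here, and these lists do not give the depth of sequencing. RNA-Seq reads were aligned by the authors using STAR, and RSEM's estimated counts and TPM per gene were deposited. Sums of estimated counts per library were between 9051693 and 21723647. The RNA kit keeps the strand, and the strand setting of the counting is not given in the sources used here.

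Sites, TSS distances and nearest genes were computed with the GENCODE M21 annotation of GRCm38 on 21 chromosomes (55413 genes, 21938 of them protein-coding), and an overlap was counted from 1 bp. Base composition was computed over 200 bp at the peak centre. Shares were compared over libraries by exact two-sided permutation or sign-flip tests, with Benjamini-Hochberg adjustment over 7 tests. The WT EZH2 and H3K27me3 lists entered no test. Estimated counts were rounded, genes whose counts summed to more than 10 across both groups were kept, and ATRXΔRBR and KD were each set against WT in edgeR's quasi-likelihood test with TMM normalization, at an adjusted p-value under 0.05 over all genes tested. KD was compared with ATRXΔRBR in a fit of all 6 libraries. Where a group had 0 counts, the fold is a bound against 3 counts over the group, and counting intervals cover counting error only. Levels were compared as log2(TPM + 1).

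Named regions were the 3 with the highest WT fold enrichment in each fate class and those at the limits of the rule. Named genes were the up to 10 nearest genes with the largest called change per direction, with the most sites and with the highest WT TPM, and called members of the fixed lists. Of these, 2 genes are not reported here. The sites, lists and tests were chosen with earlier results of these data known. Alternatives were a coverage of 50%, the midpoint, a q-value of 0.01 or less, all transcript starts, the other WT replicate, other filters, DESeq2 and its size factors, the replicate number as a block, all 6 libraries and leaving out each library. The code was tested on simulated data. Python 3.11.15, numpy 2.4.6, pandas 2.3.3, scipy 1.17.1, samtools 1.23.1, R 4.3.3, edgeR 4.0.16 and DESeq2 1.42.0 were used.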

Additional observations from a re-analysis of the deposited data

Results flagged for a closer look

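Of the 34 nearest genes that passed the test in both comparisons with WT, 26 moved in the same direction in ATRXΔRBR and KD and 8 in opposite directions. Both comparisons share their WT libraries, which by itself favours the same direction. The matching count over all genes tested is not given here, so whether the nearest genes differ from it was not tested. All 8 genes with opposite directions passed the test of the difference itself between KD and ATRXΔRBR, in a fit of all 6 libraries by edgeR's quasi-likelihood test. They were chosen for opposite calls in these same libraries, so this result was nearly fixed in advance and adds no support. The opposite directions rest on both calls against WT, and for 5 of the 8 genes a call was lost under an alternative, as given below. For Siae, Podxl and Epha8 none was lost under the alternatives run.

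The largest differences were those of Zfp612, a zinc finger gene, and Podxl, a sialomucin of the cell surface. Zfp612 was 1.06 and 1.02 TPM in WT, 0.0 in both ATRXΔRBR libraries and 3.03 and 2.95 in KD. Its fitted log2 difference, KD minus ATRXΔRBR, was 9.13 (adjusted p = 8.43e-05), a value that depends on the prior count because ATRXΔRBR was at 0. Its call in KD (log2 fold change 1.07) was lost in DESeq2 (adjusted p = 0.078), without KD replicate 1 (0.0651) and without KD replicate 2 (0.137). Podxl was 1.2 and 1.55 TPM in WT, 5.88 and 4.19 in ATRXΔRBR, with 0.0 and 0.08 in KD, with a difference of −6.59 (SE 0.48, adjusted p = 2.1e-05). Epha8, an ephrin receptor, was 1.13 and 1.49 TPM in WT, 5.19 and 5.27 in ATRXΔRBR, with 0.05 and 0.33 in KD, with a difference of −4.59 (SE 0.43, adjusted p = 9.83e-05).

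The other 5 were at more than 0 TPM in every library. Fam241b was 7.1 and 8.26 TPM in WT, 1.6 and 1.05 in ATRXΔRBR, with 17.0 and 19.6 in KD, a difference of 4.06, and its call in KD was lost without KD replicate 2 (adjusted p = 0.14). Lrrc27 was higher in ATRXΔRBR and lower in KD, with a difference of −4.0, and its call in ATRXΔRBR was lost under 6 alternatives (adjusted p = 0.0587 to 0.136) and that in KD without KD replicate 2 (0.153). Tmem181a, Siae and Eepd1 were lower in ATRXΔRBR and higher in KD, with differences of 3.69, 3.27 and 2.76. Tmem181a belongs to a family of similar genes, so its value is uncertain, and its call in KD was lost without KD replicate 1 (adjusted p = 0.0889). Eepd1 lost its call in ATRXΔRBR in DESeq2 (0.0805) and without ATRXΔRBR replicate 2 (0.0629), and in KD in DESeq2 (0.0979) and without KD replicate 1 (0.0828) or 2 (0.189). The sites of Podxl, Fam241b, Tmem181a and Eepd1 had EZH2 in none of the 4 ATRXΔRBR and KD lists, while the site of Lrrc27 had EZH2 in all 4 lists.

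Groups of 2 libraries are too small for a test of single libraries that stand apart.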

How the results depend on the processing

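The shares of sites with EZH2 and H3K27me3 kept their direction between KD and ATRXΔRBR under every alternative run, with −51.0 to −46.3 points for EZH2 and −45.5 to −45.5 for H3K27me3 when a replicate was left out. The KD shares themselves moved, from 14.0% to 4.27% (50% covered) and 8.52% (midpoint) for EZH2, and from 25.8% to 12.3%, 14.1% and 11.3% (q-value) for H3K27me3. The EZH2 difference against peaks at a TSS inside H3K27me3 was −5.12 with 50% covered and −27.1 to −12.3 with a replicate left out. The difference in EZH2 share against distal peaks without H3K27me3 changed sign, to −0.926 points when 50% of the peak had to be covered, to −1.03 when the midpoint had to be covered and to −0.832 without replicate 2 (range −0.832 to 6.85). That in ATRX share between ATRXΔRBR and WT changed sign to 0.0592 at a q-value of 0.01 or less and to 0.209 without replicate 1 (range −0.419 to 0.209). At that q-value 844 sites were left. The expression difference was −3.97 without replicate 1 and −4.0 without replicate 2, where 3 libraries allow no p below 0.25. The cause was not tested for any of these changes beyond the smaller number of sites or libraries.

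In RNA, ATRXΔRBR gave 1119 called genes, and 1979 without a filter, 597 with at least 10 counts in every library, 1738 with all 6 libraries in a single fit and 1055 to 1520 with a library left out. KD gave 5538, and 3193 to 8947 with a library left out (3193 without KD replicate 2, 3525 without KD replicate 1, 8947 without WT replicate 2). Of the nearest genes, 57 were called in ATRXΔRBR, and 96 without a filter, 24 with at least 10 counts in every library (11 higher and 13 lower, against 17 and 40) and 46 to 66 with a library left out. In KD 151 were called, and 100 with at least 10 counts in every library and 99 to 225 with a library left out. With the replicate block, the counts were 1071 and 5792 genes and 59 and 154 nearest genes, and the share differences stayed at −0.105, −48.6 and −45.5 points. The deviations of same-numbered libraries from their group means correlated at −0.311 (ATRXΔRBR with WT) and −0.0225 (KD with WT) over genes. With 2 libraries per group, the correlation of differently numbered libraries has the opposite sign. Whether ATRXΔRBR libraries share a batch with WT libraries of the other number was not tested. A crossed replicate block for ATRXΔRBR, chosen after seeing the data, gave 5585 genes and 167 nearest genes. Alternatives gave 1594 values of single genes, counted per gene, comparison and alternative. Of these, 1 changed sign with a call before or after, Atp5g3 in KD at 0.3 without WT replicate 1 (range −0.34 to 0.3, main value −0.05). Changes of sign without a call were not counted. A further 72 fell short of the threshold that the main value had passed, among them Ezh2 in KD under 5 alternatives.

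A peak list gives presence at a threshold and not a level, and a site without a peak is a site without a call.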
